A study of Mus musculus with 4 samples.

Results

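In the uterus, binding sites of the estrogen receptor ESR1 were in places packed into dense runs, and these runs are described here. The sites came from chromatin immunoprecipitation followed by sequencing (ChIP-seq), in which the authors called a peak wherever sequenced tags from the ESR1 library piled up over an input control. A run was built by sorting the uterus peaks of each autosome by summit, the position of highest signal in a peak, and linking neighbours whose summits lay at most 10 kb apart. Every peak in a run of 5 or more was a member, so members were chosen by the positions of uterus summits alone; their spacing is given as a description. The rule gave 308 runs with 1905 members, out of 24527 autosomal uterus peaks and 24836 uterus peaks in all, so members made up 7.77% of the autosomal list. Of the other autosomal peaks, 9799 stood in 4098 shorter runs of 2 to 4 and 12823 had no neighbour within 10 kb.

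The series compared uterus and liver of female C57BL/6J mice aged 8 weeks, with strain C57BL/6 in the sample characteristics. Frozen tissue was crosslinked, and each tissue gave an ESR1 library and an input control. The uterus library held 22298008 unique tags and the liver library 20016495, and the liver list had 6932 peaks. With 1 library per tissue, and no statement in the sources used here on how many animals it came from, the spread between animals is unknown here. All values below describe these libraries. Intervals are 95% intervals that cover counting error only and treat peaks as independent, although members of a run are neighbours. The tissues hold several cell types, and a peak list has no expression values, so the tissue labels could not be checked against marker genes.

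ESR1 is a nuclear receptor that binds estrogens and then acts as a transcription factor, often at the estrogen response element, a short palindromic DNA motif. It binds mostly at enhancers, stretches of DNA that act on promoters from a distance, and many of its sites lie far from any gene start. In the uterus it drives the growth and secretory changes of the estrous cycle, and in the liver it takes part in lipid and plasma protein metabolism. Groups of closely spaced enhancers are a known feature of genes with strong tissue-specific expression. Positions are given in the mm9 build as the authors' lists have them. Neither genes nor DNA sequence are given for the runs, because an mm9 genome and annotation were not used here.

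Most runs were short. There were 141 runs of 5 peaks, 83 of 6, 39 of 7, 16 of 8, 9 of 9 and 10 of 10, and beyond these 4 of 11, 2 of 12 and 4 of 13. The median span from the first to the last summit was 18.7 kb (quartiles 14.1 and 25.05 kb), with a range of 4.32 to 60.1 kb. Added together, the spans covered 6.32 Mb, which was 0.264% of the 2396 Mb between the first and last peaks of the autosomes. Within the spans, 18.9% of the bases lay under a called peak; the signal between called peaks was not measured. Neighbouring summits were a median of 3.37 kb apart (quartiles 1.75 and 5.73 kb). Of the 1597 distances, 153 were below 1 kb, or 9.58%, and the smallest was 0.359 kb. Some neighbouring peaks came as close as 1 bp between their edges, and whether such a pair was a single site that the caller had divided was not tested.

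**Figure D1:**
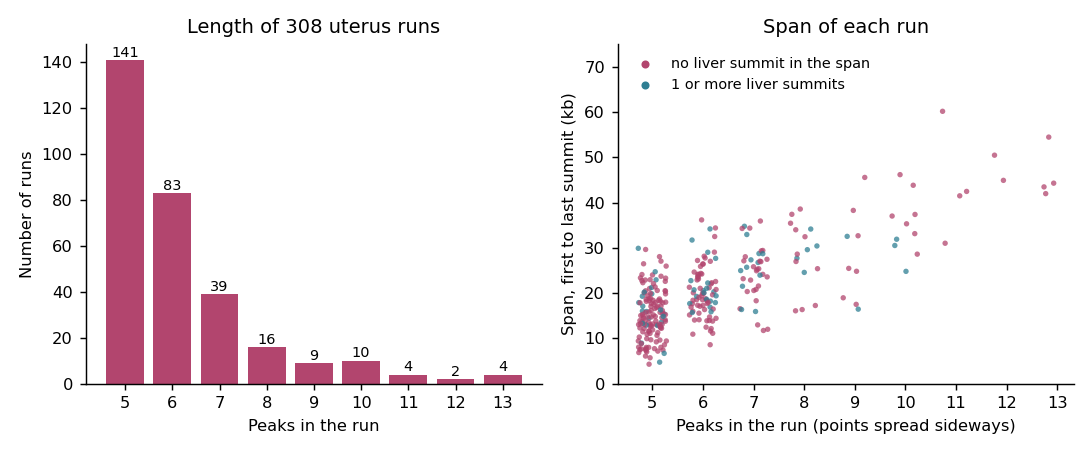
Number of uterus runs by the number of peaks they hold (left) and the span of each run from first to last summit in kb (right; each point is a run, coloured by whether a liver summit lay inside the span). The bars fall from 141 runs of 5 peaks to 4 runs of 13, spans reach 60.1 kb, and none of the 10 runs of 11 or more peaks has a liver summit.

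The 10 kb threshold and the minimum of 5 set where a run begins and ends. Of the distances inside runs, 79 were between 9 and 10 kb, and of the 616 distances from a run's end to the next uterus summit outside it, 32 were between 10 and 11 kb. Peaks of runs of exactly 5 and peaks of runs of exactly 4, just inside and just outside the rule, had close medians, with 68 and 67 tags and a median fold enrichment over control of 15.5 in both.

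Runs lay in wider neighbourhoods that were themselves rich in uterus sites. In the 50 kb on either side of the runs, other uterus summits stood at 31.2 per Mb, against 9.47 per Mb over the autosomes outside runs, even though the rule leaves the first 10 kb of each flank empty. The next uterus summit outside a run was a median of 26.5 kb away (quartiles 15.1 and 52.7 kb). Separate runs could be close as well. In 37 of the 308 runs, or 12.01%, another run lay within 50 kb, and the nearest pair was 10.5 kb apart, while the median distance to the nearest other run was 1041 kb.

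The autosomes differed in how much of their uterus binding was in runs. On chromosome 19 members made up 13.5% of the uterus peaks (Wilson interval 11.2 to 16.2), with 17 runs. Chromosome 11 had the most runs, 30, and 11.7% of its peaks were members (10.3 to 13.4). Chromosomes 8, 12 and 10 followed, each with between 10.1% and 10.3%. The lowest shares were 4.87% on chromosome 18 and 5.06% on chromosome 3 (4.01 to 6.36). The number of runs per Mb ranged from 0.0704 on chromosome 3 to 0.293 on chromosome 19. All uterus peaks went from 8.61 per Mb on chromosome 3 to 13.7 per Mb on chromosome 11. A rule that needs 5 close summits depends on this density, and how far the runs followed it was not tested. Chromosome X, which the rule leaves out, had 1 run of 5 among its 309 uterus peaks.

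The longest runs held 13 peaks, and 4 of them reached that number. The one with the most tags lay on chromosome 6, with its first summit at 50917992 and its last at 50962272, a span of 44.3 kb. In order along the chromosome its peaks held 119, 258, 445, 149, 122, 41, 68, 60, 52, 43, 250, 348 and 334 tags. The strong peaks stood at both sides of the run, with 5 peaks of 41 to 68 tags between them. The fold enrichments, which are the authors' values per peak and rank peaks within the list, ran from 8.52 to 60.6. The run on chromosome 12, between summits at 81026508 and 81069964, held 108, 55, 109, 45, 41, 103, 32, 249, 513, 99, 50, 96 and 52 tags. Here a peak of 513 tags at 93.2-fold, at 81049809 to 81050839, stood near the middle of the run, and it held 33.1% of the run's 1552 tags.

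The other runs of this length were arranged differently again. The run on chromosome 10, between summits at 87723336 and 87777782, was the most stretched of the 13-peak runs, at 54.4 kb, and its peaks held 115, 240, 213, 270, 32, 111, 48, 67, 62, 32, 144, 55 and 32 tags. Its first 4 summits lay within 3.67 kb and included the 3 strongest peaks. The run on chromosome 14, between summits at 29435523 and 29477493, held 119, 94, 139, 65, 32, 126, 75, 46, 74, 72, 161, 47 and 71 tags. No peak stood out in it. Its strongest peak, of 161 tags, held 14.4% of the run's tags, the lowest such share of all 308 runs. No liver summit lay inside any of these 4 spans.

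The run with the highest summed tags held 12 peaks and 2645 tags on chromosome 11, between summits at 104453884 and 104498784. Its peaks held 195, 317, 73, 32, 116, 38, 73, 40, 39, 732, 446 and 544 tags. The last 3 peaks alone were the 3 strongest, and the leading one, at 104485898 to 104488102, was 50.2-fold enriched. It was followed by a run of 10 peaks and 2491 tags on chromosome 2, between summits at 75159562 and 75194871, whose peaks held 113, 146, 162, 298, 123, 77, 824, 53, 223 and 472 tags. Every peak of that run was at least 21.7-fold enriched, and the leading one, at 75185597 to 75187264, was 91.4-fold enriched. The third, on chromosome 10 between summits at 39333945 and 39366483, had 9 peaks and 2436 tags. Its peaks held 163, 131, 48, 963, 335, 293, 312, 67 and 124 tags, and the leading one spanned 2750 bp at 39343680 to 39346429. Of these 3 runs, only this one held liver summits. There were 3, each in a liver peak that overlapped a uterus member, and the liver peak at the leading site was the strongest of them, with 469 liver tags.

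**Figure D2:**
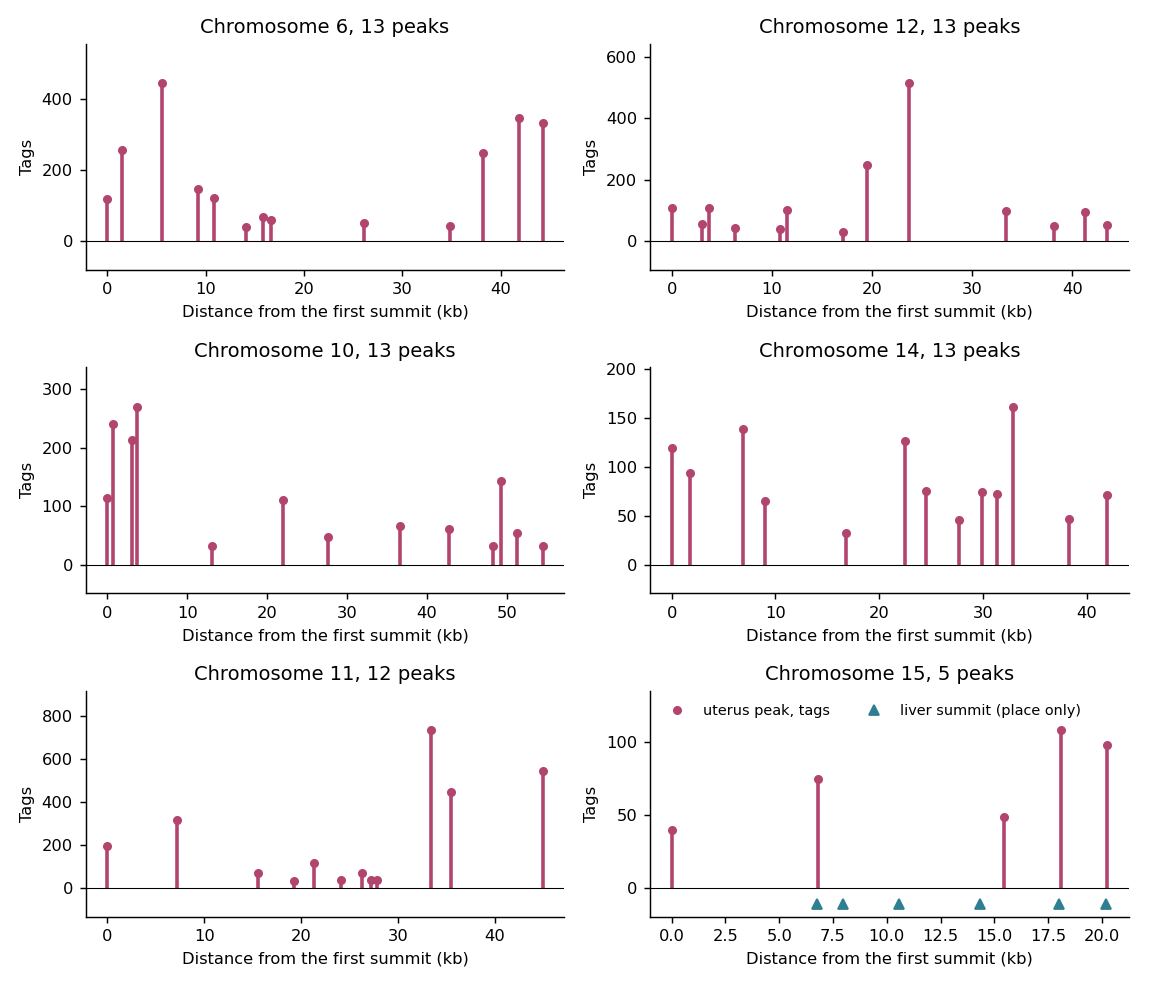
Tags of each uterus peak (vertical axis) by its distance in kb from the first summit of its run, for the 5 longest runs and, at the lower right, the run with the most liver summits, whose places are marked by triangles below the axis. Strong peaks stand at both sides of the chromosome 6 run, near the middle of the chromosome 12 run and at the far side of the chromosome 11 run.

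The most compact runs packed 5 summits into less than 6 kb. The densest, on chromosome 15 between summits at 78923372 and 78927695, had 1.16 peaks per kb, and its peaks held 248, 105, 45, 142 and 121 tags. Next, on chromosome 10, 5 summits lay between 94602496 and 94607272. That run was dominated by its first peak, of 570 tags and 110-fold enrichment, beside peaks of 51, 133, 35 and 30 tags. The third, on chromosome 8 between 34997140 and 35002882, held only weak peaks, of 48, 39, 41, 57 and 46 tags. In each of these runs at least 2 neighbouring summits were less than 1 kb apart.

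Members held more tags than other uterus peaks. The median was 72 tags per member (order-statistic interval 70 to 75), against 60 (59 to 61) in runs of 2 to 4 and 50 (50 to 51) at peaks with no neighbour. The other autosomal peaks together had a median of 54. Members were also wider, with a median of 661 bp against 575 bp at the other autosomal peaks, and a count of tags is summed over the width. Per kb of peak, the medians were 105 tags at members and 90.5 tags at the other peaks. The difference in fold enrichment was smaller, with a median of 15.8 at members (15.2 to 16.3) and 14.6 at the other peaks (14.5 to 14.8), and the quartiles overlapped widely, at 10.9 and 25.8 against 10.7 and 22.3. The median score, the caller's measure of significance, was 299.7 at members and 212 at the other peaks. In total the members held 11.2% of all tags in autosomal peaks.

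The rise in tags was gradual and did not begin at the 5-peak limit. Peaks with no neighbour had a median of 50 tags, and peaks in runs of 2, 3 and 4 had medians of 57, 61 and 67. In runs of 5, 6 and 7 the medians were 68, 72 and 71. The highest medians were 97 tags, in runs of 9 and of 10, with intervals that overlapped those of the neighbouring lengths, while the 4 runs of 11 had a median of 65.5. Across all 308 runs, Spearman's rho between run length and the median tags of a run was 0.22, and that between the mean spacing of a run and its median tags was 0.077. These describe 1 library in which runs share depth and control.

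**Figure D3:**
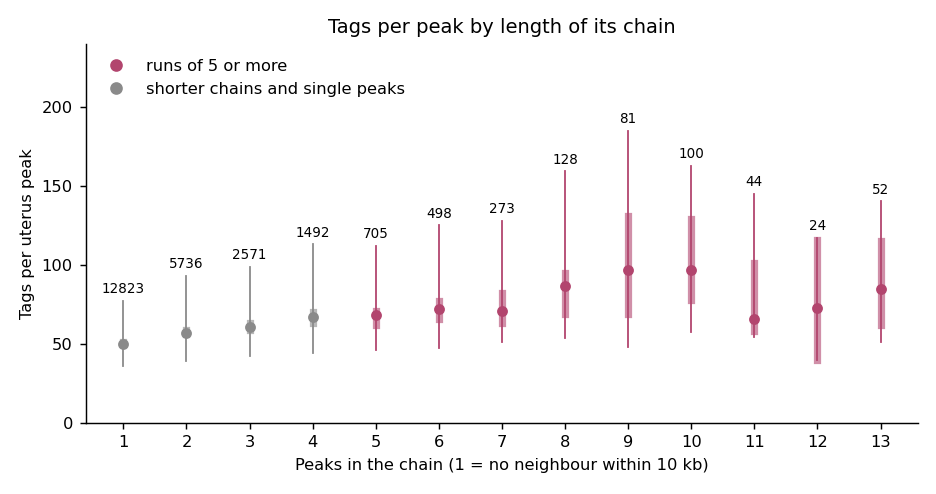
Median tags per uterus peak (points), its 95% order-statistic interval (thick bars) and the quartiles (thin lines), by the number of peaks in the chain, where 1 means no neighbour within 10 kb; the number of peaks stands over each line. Medians climb from 50 tags at single peaks to 68 in runs of 5 and 97 in runs of 9 and 10, with wide intervals in the longest runs.

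Both strong and weak peaks went into a run. Of the autosomal uterus peaks, 10% by definition fell in the highest decile of tags, and of the members 387 did, or 20.3% (Wilson interval 18.6 to 22.2), against 9.13% (8.76 to 9.52) of the other peaks. By fold enrichment the shares in the highest decile were 14.3% and 9.64%. In the lowest decile of tags there were 57 members, or 2.99%, against 10.6% of the other peaks. Members ranged from 21 to 1033 tags and from 4.37- to 149-fold. Under 5-fold there were 3 members and 57 of the 22622 other autosomal peaks.

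Within a run, peaks were nearly as unlike each other as members of different runs. The standard deviation of log2 tags was 1.03 within runs and 1.06 over all members, and the intraclass correlation, the share of the variation that lay between runs, was 0.0454. In the median run the strongest peak held 5.69 times the tags of the weakest (quartiles 3.52 and 9.32), and the most uneven run reached 31.4 times. The strongest peak held a median of 35.2% of its run's tags, and in 52 runs, or 16.9%, it held more than all other members together. Its tags had a median of 223 (199 to 252), and 212 of the 308 strongest peaks were in the highest decile of the list. A leading peak is the highest of at least 5, so a high value is built into it. With the strongest peak of every run set aside, the remaining 1597 members had a median of 63 tags (61 to 65) and a median fold enrichment of 14.0 (13.7 to 14.5). The 22622 other autosomal peaks, from which no leading peaks were taken, had medians of 54 tags and 14.6-fold.

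The 5 members with the most tags were a peak of 1033 tags on chromosome 1 at 38297743 to 38299884, the 963-tag peak on chromosome 10 described above, and peaks of 913 tags on chromosome 3 at 79611601 to 79614305, of 883 tags on chromosome 8 at 124675187 to 124676761 and of 824 tags on chromosome 2. These were picked after their values were seen. The chromosome 1 peak was the first of a run of 6, the chromosome 3 peak the eighth of 9 and the chromosome 8 peak the third of 6, so they had no common place in their runs. The peaks on chromosomes 1 and 10 overlapped a liver peak, and the others did not.

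Taken over all runs, the strongest peak was at an end about as often as even places would give. It was the first or the last peak in 100 of 308 runs, or 32.5% (27.5 to 37.9), where 34.05% of runs would have it there if every place were alike. Ranked by fold enrichment it was at an end in 94 runs. The weakest peak was at an end in 106 runs, or 34.4%. Median tags were 72 at the ends, 72 at the places next to them and 72 further inside. In the 141 runs of 5, the strongest peak was in places 1 to 5 in 28, 33, 19, 31 and 30 runs, so the middle place had the fewest. Longer runs gave another picture. In the 84 runs of 7 or more the strongest peak was at an end in 13, or 15.5% (9.27 to 24.7), against 24.8% for even places, whereas in runs of 5 or 6 it was there in 38.8% (32.7 to 45.4), against 37.5%. The split at 7 peaks was one of several minimum lengths tried, and no test was made of the difference.

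**Figure D4:**
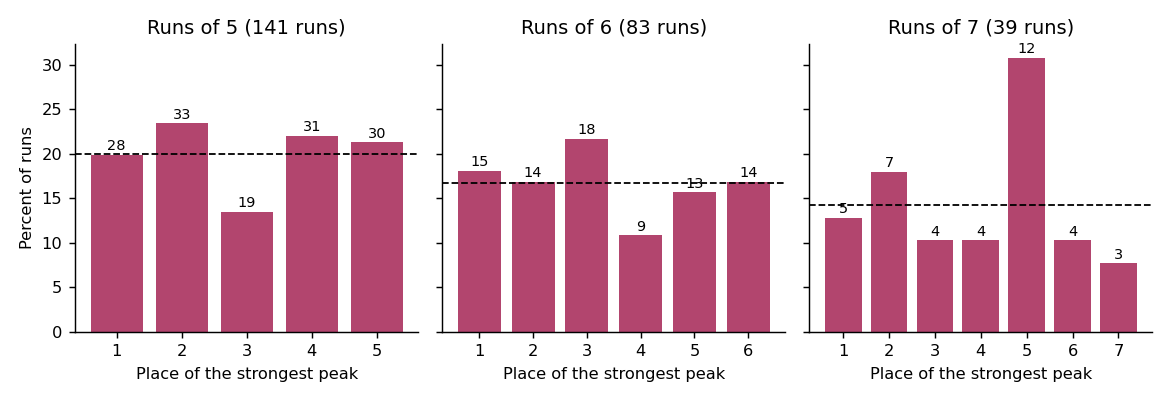
Percent of runs (vertical axis) in which the peak with the most tags was at each place along the run, for runs of 5, 6 and 7 peaks; numbers of runs stand above the bars and the dashed line marks an even share. In runs of 5 the bars go from 19 runs at the middle place, below the line, to 33 runs at the second, and in runs of 7 the fifth place leads with 12 of 39 runs.

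Strong peaks did not pair up either. The second strongest peak stood next to the strongest in 101 runs, or 32.8% (27.8 to 38.2), and 34.05% would be reached if places were alike. The summits on either side of the strongest peak were a median of 3.16 kb away (2.85 to 3.48), against 3.46 kb (3.27 to 3.71) for the other distances within runs, and these intervals overlapped.

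Few uterus peaks coincided with a liver peak, in runs or elsewhere. Of the autosomal uterus peaks, 6.63% overlapped a liver peak by at least 1 bp. Among members the number was 100 of 1905, or 5.25% (Wilson interval 4.33 to 6.34), against 6.75% (6.43 to 7.08) among the other autosomal uterus peaks. The difference was -1.50 percentage points (Newcombe interval -2.47 to -0.360). Runs of 2 to 4 had 5.53% (5.10 to 6.00) and peaks with no neighbour 7.68% (7.23 to 8.16). By length the share did not fall steadily, at 4.36% in runs of 4, 5.11% in runs of 5, 5.62% in runs of 6 and 7.69% in runs of 7.

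The lower share of members stood beside their higher tags. Among the other autosomal peaks the share overlapping a liver peak was 1.96% in the lowest decile of tags and 10.9% in the highest, and members were taken more from the upper deciles. Within each of the 10 deciles the share was lower among members. In the sixth decile, the only one where the intervals did not overlap, it was 3.38% (1.65 to 6.81) at members and 8.06% (7.01 to 9.26) at other peaks. In the highest it was 9.30% (6.80 to 12.6) and 10.9% (9.66 to 12.4), and there, as in all deciles but the sixth, the intervals overlapped. Had members overlapped liver peaks as often as other peaks of their own decile, 8.01% would have done so, against the 5.25% observed. These other peaks pool runs of 2 to 4, of which 5.53% overlapped, with peaks that had no neighbour, at 7.68%. Runs of 2 to 4 were not compared with members by decile.

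**Figure D5:**
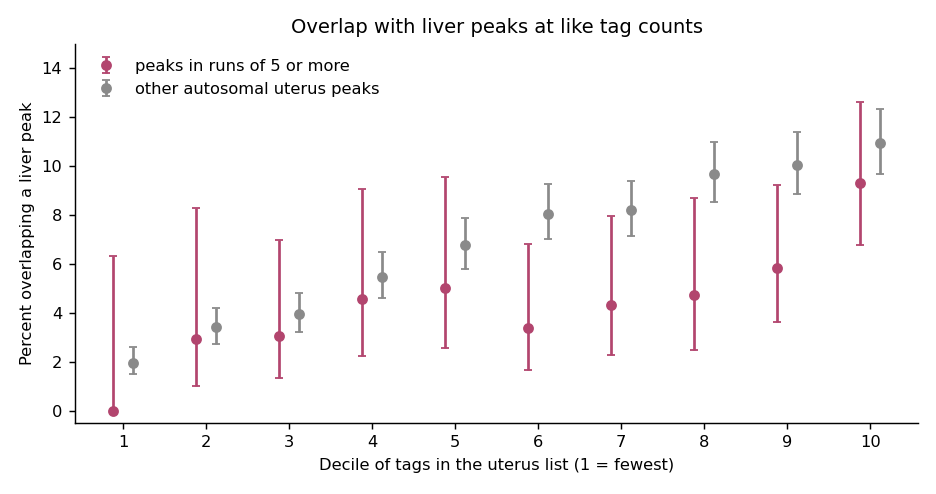
Percent of uterus peaks that overlapped a liver peak (vertical axis, with 95% Wilson intervals) in each decile of uterus tags, for peaks in runs of 5 or more and for the other autosomal uterus peaks. Members lie below the other peaks in all 10 deciles. The intervals overlap in every decile but the sixth, where the shares are 3.38% and 8.06%.

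Within runs, overlap with liver followed the rank of the peak by tags, just as it rose with tags among the other autosomal peaks. Median tags were 223 at the strongest rank and 46 at the fifth or lower. Whether rank added anything to tags was not tested. Liver peaks overlapped 29 of the 308 strongest members, or 9.42% (6.64 to 13.2), and 17 of those ranked second, or 5.52%. At the fifth rank or lower the share was 3.57% (2.41 to 5.25). Of the runs, 66 had at least 1 overlapped member and 25 had at least 2. The highest number in a run was 4, and no run had every member overlapped. With 5.25% of all members overlapped, a run overlapped throughout would be rare in any case. Whether overlapped members gathered in the same runs was not tested. Among the 66, the strongest member was overlapped in 29.

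Counted by summits inside the span, 65 of 308 runs held a liver summit, or 21.1% (16.9 to 26.0), and 243 held none. A single liver summit was found in 35 runs, 2 in 14, 3 in 8 and 4 to 6 in the remaining 8. Runs with and without a liver summit had members of similar tags, with medians of 74 (67 to 81) and 71 (69 to 74). Median fold enrichments of the members were 14.9 and 16.1. Strongest peaks held medians of 259 tags (206 to 321) and 209 tags (181 to 247), with intervals that overlapped. Runs of both kinds had a median length of 6 peaks. The longest runs were without liver summits. The 10 runs of 11 or more peaks spanned 455 kb and held 120 members, and neither a liver summit inside a span nor an overlapped member was found there. A count of 0 of 120 allows a share of up to 2.5% by the limit of 3 counts, for independent peaks, whereas these came from only 10 runs. The limit of 11 was placed after the values were seen, where the counts of 0 begin, and runs of 10 had 5 of 100 members overlapped, so no difference is read from it.

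Although few uterus peaks coincided with liver peaks, in runs or elsewhere, liver summits were dense in the spans. The 123 liver summits inside runs came to 19.5 per Mb (exact Poisson interval 16.2 to 23.2), against 2.83 per Mb over the autosomes outside runs. The 50 kb flanks had 8.84 per Mb (7.79 to 9.99). Spans begin and end at a uterus summit, so a liver peak at a uterus peak is counted over a short stretch; the spans of runs of 2 to 4, which are shorter, had 16.9 per Mb. Liver peaks that overlapped no uterus peak are not counted at uterus peaks, but they could not lie in the 18.9% of the spans under uterus peaks, which lowers their density there. Of these, 40 lay inside runs, or 6.33 per Mb (4.52 to 8.61). The spans of runs of 2 to 4 had 4.39 per Mb (3.58 to 5.32), the flanks 5.88 per Mb (5.03 to 6.83) and the remaining autosomes, flanks included, 2.18 per Mb (2.12 to 2.24). The intervals of spans and flanks overlapped, and both lay above the autosomal value.

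Most liver peaks inside runs overlapped a uterus peak. Of the 123, 83 overlapped a uterus peak, or 67.5% (58.8 to 75.1). Of the 2981 liver peaks outside runs that had a uterus summit within 10 kb, 52.2% (50.4 to 54.0) did. A liver summit inside a run lies between linked uterus summits, so it is nearer to one by construction than the 10 kb limit requires outside runs. More uterus peaks also stood around it. The shares were not adjusted for either, so no difference is read from them. The liver peaks inside runs held a median of 65 liver tags (60 to 84), against 58 (57 to 58) at the other autosomal liver peaks. At those 2981 liver peaks outside runs the median was 62, which is inside the interval of the liver peaks in runs.

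The run with the most liver summits, 6, lay on chromosome 15 between uterus summits at 88674304 and 88694539. Its 5 uterus peaks held 40, 75, 49, 108 and 98 tags. The 6 liver peaks held 208, 83, 41, 82, 147 and 94 liver tags, and 3 of them overlapped a uterus member. Both tissues thus had a string of sites there, in part at different positions. The run on chromosome 2 between summits at 118345936 and 118377663 had 6 uterus peaks, of 45, 190, 170, 28, 74 and 209 tags, and 5 liver summits, 4 of them in peaks that overlapped members. Its strongest uterus peak, 89.7-fold enriched at 118377345 to 118378023, was not among the overlapped ones. On chromosome 1, between summits at 93333043 and 93360397, 7 uterus peaks stood with 5 liver peaks. The strongest of these liver peaks held 268 tags and lay at the fifth uterus peak, whereas the strongest uterus peak, the second of the run, held 185 tags and coincided with a liver peak of 125 tags.

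The same rule applied to the liver list gave 40 liver runs with 246 peaks, 3.57% of the autosomal liver peaks. The longest also had 13 peaks. Of the 308 uterus runs 3 met a liver run, or 0.974%, and of the 40 liver runs the same number did, or 7.5%, while 20 liver runs held at least 1 uterus summit. The uterus runs that met a liver run lay on chromosomes 10, 14 and 15. As in the uterus list, peaks in liver runs held more tags than other liver peaks, with medians of 70 and 58, and were wider, with medians of 708 and 630 bp. Their median fold enrichments were 11.7 and 11.1.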

How the data were processed

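ESR1 ChIP-seq peak lists of 1 uterus and 1 liver library were used; the inputs entered through peak calling. The authors called peaks per library with MACS 1.3.7.1 on mm9, per the submitters' processing notes, at a p cutoff of 1e-10 with 50 bp tags, per the file headers. Alignment steps are not stated in these sources. The deposited tags are raw counts per peak, not scaled to depth. Fold enrichment, as deposited, is the ratio that MACS formed between ESR1 tags and its local background estimate. The deposited score is the −log10 of the caller's p-value multiplied by 10, and the authors' false discovery rate, a percent, was not used. All of these are the authors' values and were used only within a list.

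Summits were taken as start plus summit minus 1 and chained at up to 10 kb on the autosomes. Deciles were of tags or fold enrichment over the autosomal uterus list. Shares have Wilson, medians order-statistic, densities exact Poisson and differences of shares Newcombe intervals, and no test was made, since peaks of 1 library are not replicates. The spans of the autosomes run from the first to the last summit of either list. Runs were named by a rule: the 5 longest, the 3 most dense, the 3 with most tags, the 3 with most liver summits and the 3 longest without one. The members, lists and rules were chosen with earlier results of these data known. Chaining and overlap were tested on simulated data. Software was Python 3.11.15 with scipy 1.17.1, pandas 2.3.3, numpy 2.4.6 and, for plots, matplotlib 3.10.9.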

Additional observations from a re-analysis of the deposited data

How the results depend on the processing

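No paired analysis was possible because each group has 1 sample and the results come from no test. Of 118 values under 15 alternatives, 69 stayed within the interval, or for counts within 1.5 times, of the value reported, and the difference between members and other peaks kept its direction in all medians and in all 12 overlap shares. Linking up to 5 kb left 95 runs and 518 members, with a median fold enrichment of 14.8, against 14.7 at the other peaks. The strongest peak was at an end in 37.9% of runs, which was then above the even share of 37.4%. Of the members 3.28% overlapped a liver peak, against 6.71% of the other peaks, and 13.7% of runs held a liver summit. Linking up to 20 kb gave 673 runs and 4730 members, with medians of 68 tags, a score of 275, 637 bp and 101 tags per kb, liver summits in 26.0% of runs and 13.8 per Mb. Runs of 4 or more numbered 681, with 3397 members, a median width of 642 bp and the strongest peak at an end in 41.9%, against an even share of 42.8%. Runs of 7 or more numbered 84, with 702 members, medians of 79 tags, a score of 329, 691.5 bp and 109.7 tags per kb, 15.5% with the strongest peak at an end, against an even share of 24.8%, and 26.2% with a liver summit. At a score of at least 200 there were 86 runs and 493 members, with medians of 109 tags, 22.4-fold, a score of 539, 762 bp and 143 tags per kb. Of these runs 25.6% had the strongest peak at an end, against an even share of 35.9%. A liver peak overlapped 3.85% of members, against 7.06% of the other peaks, and spans held 14.2 liver summits per Mb. At a fold enrichment of at least 10 there were 176 runs and 1022 members, with medians of 86 tags, 19.15-fold, a score of 395, 682.5 bp and 119 tags per kb. Of these members 4.01% overlapped a liver peak, against 5.41% of the other peaks, whose share was also lower than without the cut. These cuts raise the medians by their construction. For runs of 7 or more the interval of the share at an end was 9.27 to 24.7%, just below the even share. At a score of at least 200 it was 17.5 to 35.7%, also just below. Linking up to 20 kb gave 27.6% (24.4 to 31.1), against an even share of 31.5%. At a fold enrichment of at least 10 the even share was inside the interval, at 30.1% (23.8 to 37.3) against 35.8%. These settings were among several tried and share peaks, and no test was made. Ranking the strongest peak by score is not valid in runs where it reaches about 3100, since weaker peaks there can print a higher score. Where peaks had edges within 500 bp of each other, only the one with the most tags was kept, with its own width. This left 226 runs and a median width of 675.5 bp, and dropping weaker peaks can raise the medians. With summits within 200 bp in place of overlap, 4.04% of members were shared, against 5.52% of other peaks. With liver peaks of score at least 200 alone, 3.20% of members overlapped one, against 3.58%, 14.3% of runs held a liver summit and spans held 11.5 per Mb. Leaving out peaks under 5-fold and adding chromosome X were chosen after seeing the data and moved nothing beyond these limits. Depth limits weak sites: a peak under the cutoff in either library is counted as absent, which can break a run or hide a shared site.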
